A study of Mus musculus with 8 samples.

Results

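The 60 genes described here encode the machinery of DNA replication and of mitosis, and they were taken by name from the 43346 gene identifiers counted in mouse notochord-derived cells (NDCs). Of these, 31 act around the G1/S transition of the cell cycle, where origins are licensed and DNA is copied, and 29 act in G2/M, where chromosomes are condensed and segregated. The rule was their known function. RNA-Seq was performed on 4 litters at embryonic day 12.5 (E12.5) and 4 litters at postnatal day 0 (P0) to establish how mRNA abundance differs between the ends of the notochord to nucleus pulposus (NP) transformation. All animals at both stages were Shh-cre;ROSA:YFP, in which Cre expressed from the Shh locus switches on YFP in Shh-expressing cells and in their progeny. Each sample was a pool of the animals of a single litter, so replicate spread is the spread between litters. E12.5 notochords were dissected whole into TRIzol without sorting, whereas P0 NP cells were dissociated mechanically and sorted for YFP, so the effects of stage and of isolation cannot be told apart.

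A dividing cell loads the MCM helicase onto origins in G1, fires those origins in S phase under cyclin E-CDK2 and cyclin A-CDK2, and copies DNA with polymerases tethered by the PCNA clamp. Transcription of these genes is driven largely by E2F factors. In G2 and mitosis, cyclin B-CDK1, the Polo and Aurora kinases and the spindle checkpoint control chromosome segregation, and their genes are transcribed late through CHR and CCAAT promoter elements. In bulk RNA a smaller share of cycling cells and less RNA per cycling cell cannot be told apart.

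Between 4442775 and 8904050 reads were counted on genes per litter, and values are given as CPM, read counts on genes scaled to a common total with TMM library sizes. On that scale a count of 3 corresponded to 0.353 to 0.738 CPM, a limit that covers counting error only. In NDP10.2 and NPD9.2, 16.3% and 17.5% of the tallied reads were ambiguous between genes, against 7.07% to 11.6% in the other 6 litters. The summed level of 10 notochord markers was 2382 to 6367 CPM at E12.5 and 8220 to 31824 CPM at P0, with Noto at 0 to 0.195 CPM and 0 to 0.433 CPM. Car3 held the largest share of it (mean 1569 and 12293 CPM). Of the 9 tested, Car3, Cd24a and Krt19 were called higher at P0. Shh (841 and 5.94 CPM) and Foxa1 (144 and 30.5 CPM) were called lower, and the other 4 were not called. The mean log2 CPM of the list was 6.88 at E12.5 and 6.55 at P0. Markers of other cells were also present. The 12 leukocyte markers summed to 65.8 to 138 CPM at E12.5 and to 429 to 4635 CPM at P0, and for all 12 the lowest P0 litter exceeded the highest E12.5 litter. The 3 primitive erythroid globins summed to 8120 to 32815 CPM at E12.5 and 2.12 to 7.07 CPM at P0, and 7 sclerotome markers to 135 to 205 CPM and 8 to 23.2 CPM.

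Few replication and mitosis genes passed the test between the stages. Of the 59 genes with enough counts to be tested, 3 were lower at P0 and 0 were higher at an adjusted p under 0.05 (edgeR quasi-likelihood test). The 3 were Tyms, which makes thymidylate for DNA synthesis, Pole, the catalytic subunit of the leading-strand DNA polymerase, and Cdk2, the kinase that drives entry into S phase. These are 5.08% of the genes tested here, while 27.9% of all 15467 genes passed the same test, 12.0% lower and 16.0% higher at P0. Before adjustment, 11 of the 59 had a p under 0.05, 10 lower and 1 higher, as did 39.7% of all genes. DESeq2 called 6 lower and 0 higher, and 33.1% of all genes in either direction. The median absolute log2 fold change was 0.30 over the 59 genes and 0.61 over all genes tested. A change of more than 2-fold was fitted for 3 of the 59 (5.08%) and for 33.9% of all genes. These were Tyms and Pole, lower at P0, and E2f2, higher but not called, while Cdk2 was 1.67-fold lower. For 29 of the 59 (49.2%) the 95% confidence interval lay wholly within a 2-fold change in either direction, as it did for 26.3% of all genes. For the other 30 a change of 2-fold or more in at least 1 direction lay within the interval, so a missed threshold does not show equal abundance.

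Most fitted changes of the G1/S genes were negative, with a median log2 fold change of -0.24 over 30 tested, 20 negative and 10 positive. The G2/M genes had a median of 0.01 over 29 tested, 13 negative and 16 positive, while the median over all genes tested was 0.04. Both medians depended on NPD28, without which they were -0.45 for G1/S and -0.20 for G2/M. All 3 calls fell in G1/S. In G2/M edgeR called 0, 4 had an unadjusted p under 0.05 (3 lower, 1 higher), and DESeq2 called 2, Cdk1 and Aurka. Every P0 litter lay below every E12.5 litter for 8 of the 59 genes (13.6%), namely Orc1, Mcm6, Pole, Rfc3, Tyms and Cdk2 in G1/S and Cdk1 and Aurka in G2/M. Over all genes tested the same held for 14.4%. The reverse separation occurred for 0 of the 59 and for 15.5% of all genes. The difference between the phases was not tested.

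**Figure D1:**
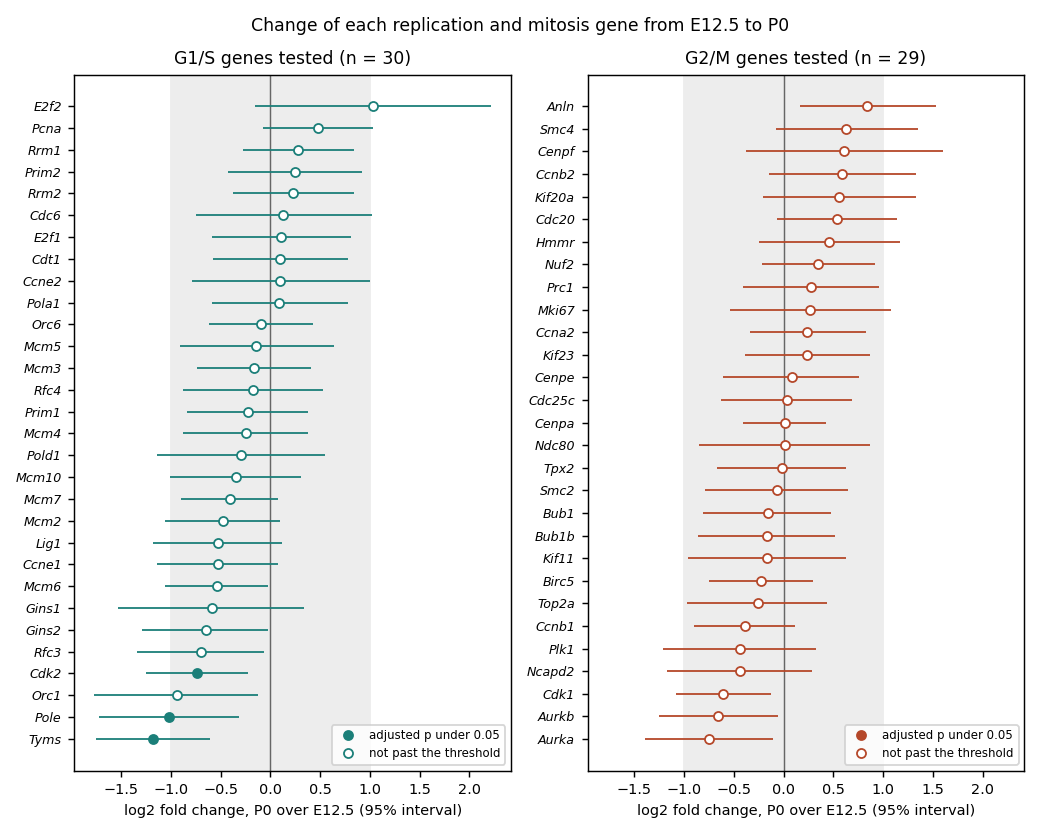
Log2 fold change of each tested gene, P0 over E12.5, with its 95% confidence interval (G1/S left, n = 30; G2/M right, n = 29). Filled points passed an adjusted p of 0.05, the grey band spans a 2-fold change in either direction, and the 3 filled points, Tyms, Pole and Cdk2, all lie left of 0 among the G1/S genes.

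Origin licensing begins with the origin recognition complex, whose largest subunit is Orc1. In the litters NDP10.2, NPD3, NPD4 and NPD9.2 at E12.5, Orc1 stood at 13.4, 11.5, 9.67 and 9.84 CPM, and in NPD26, NPD27, NPD28 and NPD30 at P0 at 2.83, 6.20, 7.89 and 6.06 CPM. All P0 litters lay below all E12.5 litters, and NPD26 was the lowest. The fitted log2 fold change of -0.94 (SE 0.37) did not pass the threshold (adjusted p = 0.0825). Orc6, another subunit, was the most abundant licensing gene, at 23.6, 35.5, 42.7 and 35.7 CPM at E12.5 and 29.4, 37.6, 29 and 33.1 CPM at P0 in the same order of litters, which is kept throughout. Its stages overlapped, with a log2 fold change of -0.09 (95% CI -0.62 to 0.43, adjusted p = 0.809). Cdc6 and Cdt1, which load the helicase onto origins, gave 0.13 (adjusted p = 0.840) and 0.10 (adjusted p = 0.841) on the same scale.

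The MCM subunits form the hexameric helicase that unwinds DNA, and the fitted change of all 6 was negative, from -0.54 to -0.14, although none passed the threshold (1 at an unadjusted p under 0.05, none by DESeq2). Mcm6 was the most abundant of them and had the smallest p, at 104, 149.7, 119 and 113 CPM at E12.5 and 76.0, 93.6, 104 and 60.3 CPM at P0. The highest P0 litter, NPD28, lay just under the lowest E12.5 litter, NDP10.2, and the log2 fold change was -0.54 (SE 0.24, adjusted p = 0.113). The values were -0.48 for Mcm2 (adjusted p = 0.203), -0.16 for Mcm3 (0.688), -0.25 for Mcm4 (0.558), -0.14 for Mcm5 (0.810) and -0.41 for Mcm7 (0.200).

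The helicase is activated by the GINS complex and Mcm10. Gins2, a GINS subunit, was measured at 14.4, 22.4, 15.1 and 20.2 CPM at E12.5 and 14.8, 11.2, 8.71 and 11.1 CPM at P0, so that only NPD26 reached the range of the E12.5 litters. Its log2 fold change was -0.65 (SE 0.29, adjusted p = 0.115), and 67.3% of its exonic bases overlap Gse1 on the opposite strand. Whether reads there were set aside as ambiguous was not tested. Mcm10, which helps the helicase start, stood at 16.0, 18.9, 13.8 and 28.8 CPM and then 11.2, 16.0, 17.2 and 16.2 CPM. The stages overlapped (log2 fold change -0.35, adjusted p = 0.423), and Gins1 gave -0.59 (adjusted p = 0.335).

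Among the polymerases, Pole (chromosome 5, 110286306-110337474, GRCm38, plus strand) was lower at P0. It was measured at 28.8, 34.3, 28.7 and 43.5 CPM at E12.5 and at 11.0, 19.5, 24.8 and 11.2 CPM at P0. No P0 litter reached the lowest E12.5 litter, and NPD26 and NPD30 were lowest. The mean fell from 33.8 ± 6.99 to 16.6 ± 6.74 CPM (SD, n = 4 litters each), a 2.03-fold lower abundance (95% CI 1.25 to 3.28, log2 fold change -1.02, SE 0.32, adjusted p = 0.0335). The call was lost when NPD3, NPD9.2, NPD26, NPD27 or NPD30 was left out, and the adjusted p ranged from 0.0114 to 0.126 over 16 alternatives. Pold1, the catalytic subunit of the lagging-strand polymerase, was spread widely at both stages, at 27.1, 21.5, 20.4 and 49.4 CPM and at 18.4, 15.4, 41.4 and 20.8 CPM. Its highest values, in NPD9.2 and NPD28, came from opposite stages, and its log2 fold change of -0.30 had an interval from -1.14 to 0.55 (adjusted p = 0.610). The polymerase alpha-primase genes that lay down primers gave 0.09 for Pola1 (adjusted p = 0.855), -0.23 for Prim1 (0.580) and 0.25 for Prim2 (0.590).

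Pcna, the sliding clamp, was measured at 26.7, 42.0, 45.2 and 35.9 CPM at E12.5 and 59.6, 61.6, 50.0 and 37.8 CPM at P0. Of the P0 litters only NPD30 lay within the E12.5 range, and the log2 fold change of 0.48 (95% CI -0.07 to 1.03) did not pass the threshold (adjusted p = 0.180). Rfc3, a subunit of the clamp loader, had values of 24.3, 28.5, 28.7 and 26.8 CPM at E12.5 and 22.5, 21.1, 12.7 and 10.5 CPM at P0. Its stages did not overlap, with NPD28 and NPD30 well below the rest, and its log2 fold change of -0.70 (SE 0.29) had an adjusted p of 0.0971. The value for Rfc4, a second loader subunit, was -0.17 (adjusted p = 0.729). Okazaki fragments are sealed by DNA ligase I, encoded by Lig1, which stood at 53.1, 47.4, 38.0 and 68.4 CPM and at 34.9, 29.6, 54.7 and 23.8 CPM. Here NPD28 lay inside the E12.5 range and the other P0 litters below it (log2 fold change -0.53, adjusted p = 0.213). Fen1, the flap endonuclease that trims those fragments, had 0, 0, 0 and 4 counts at E12.5 and 0, 9, 3 and 0 counts at P0 and was not tested. In the annotation 84.2% of its exonic bases are shared with Tmem258 and Gm10143 on the opposite strand. Whether reads were set aside there as ambiguous was not tested, so the low count is no measure of the transcript.

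Deoxynucleotide supply held the largest decrease. Tyms (chromosome 5, 30058202-30073617, GRCm38, minus strand) was measured at 35.9, 53.7, 41.0 and 53.1 CPM at E12.5 and at 17.5, 23.2, 25.5 and 14.6 CPM at P0. The highest P0 litter, NPD28, lay well under the lowest E12.5 litter, NDP10.2. The mean fell from 45.9 ± 8.89 to 20.2 ± 5.07 CPM (SD, n = 4 litters each), 2.27-fold lower at P0 (95% CI 1.53 to 3.36, log2 fold change -1.18, SE 0.26, adjusted p = 0.00623). It was called in all 8 fits that left out 1 litter. Both subunits of ribonucleotide reductase, which makes deoxynucleotide precursors, had positive fitted values. Rrm1, the large subunit, stood at 78.3, 123, 109 and 93.7 CPM and at 103, 90.1, 165 and 133 CPM, with the stages overlapping and NPD28 highest. Its log2 fold change was 0.28 (95% CI -0.28 to 0.84, adjusted p = 0.449), and that of Rrm2, the small subunit, was 0.23 (adjusted p = 0.578).

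Of the G1/S regulators, Cdk2 (chromosome 10, 128697939-128705031, GRCm38, minus strand) was both the most abundant and the one that changed. It stood at 73.6, 77.9, 67.6 and 94.7 CPM at E12.5 and at 43.7, 48.0, 60.5 and 35.3 CPM at P0, and the stages did not overlap. The mean fell from 78.4 ± 11.6 to 46.9 ± 10.5 CPM (SD, n = 4 litters each), 1.67-fold lower at P0 (95% CI 1.17 to 2.38, log2 fold change -0.74, SE 0.23, adjusted p = 0.0348). Leaving out NPD3, NPD9.2, NPD26, NPD27 or NPD30 ended the call, and over 16 alternatives the adjusted p ranged from 0.00946 to 0.127. E2f2, a transcription factor that activates G1/S genes, had the highest fitted change of the 59, yet 1 litter carried it. Its values were 22.4, 9.95, 15.6 and 34.2 CPM at E12.5 and 19.0, 26.5, 92.4 and 29.1 CPM at P0, where NPD28 stood far above the other 7 litters, which overlapped. The log2 fold change of 1.03 (SE 0.53) did not pass the threshold (adjusted p = 0.181) and was 0.29 without NPD28 (adjusted p = 0.640). E2f1, a related activator, gave 0.11 (adjusted p = 0.840). The genes of the E-type cyclins, which activate CDK2 as cyclin A does, gave -0.53 for Ccne1 (adjusted p = 0.179) and 0.10 for Ccne2 (adjusted p = 0.878). For Ccne2, 17.4% of the exonic bases overlap Ints8 on the opposite strand, with any loss of reads not tested.

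**Figure D2:**
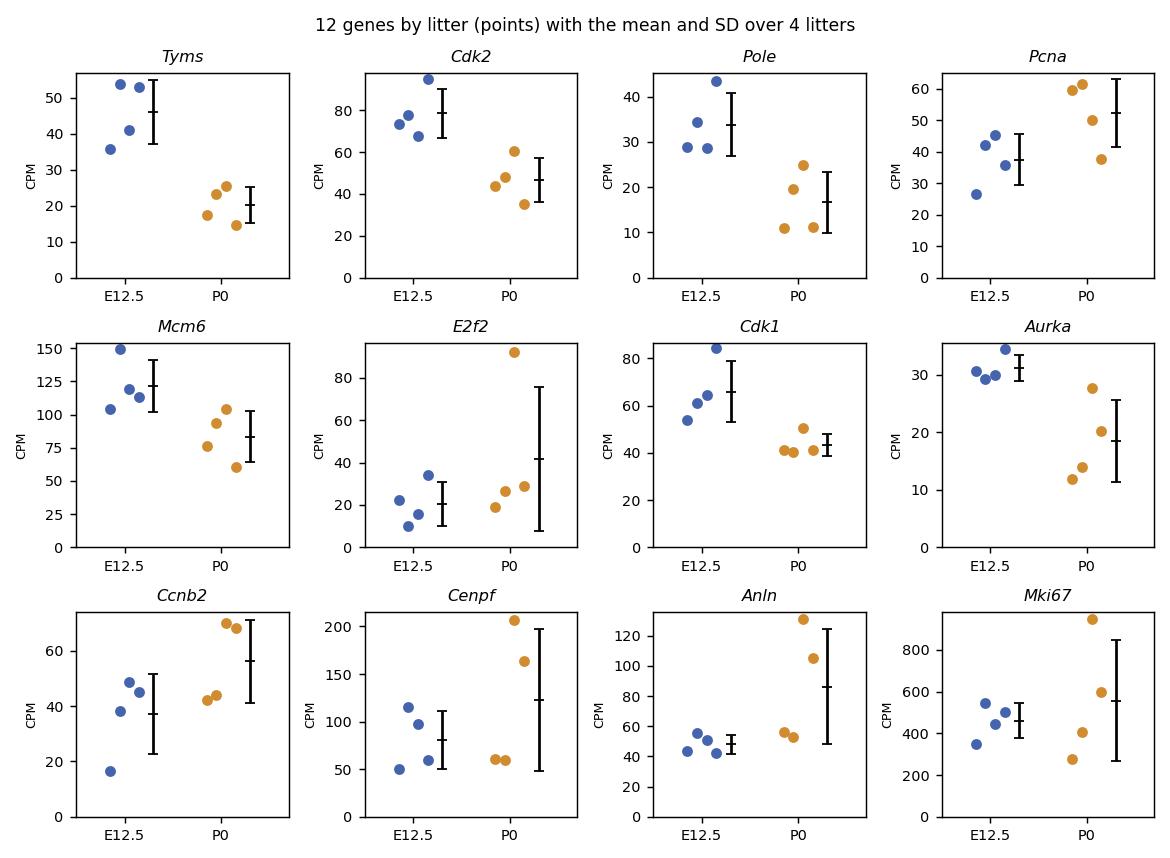
CPM of 12 of the genes in each litter (points; E12.5 left, P0 right in each panel) with the mean and SD over 4 litters. For Tyms, Cdk2 and Pole the points of the stages do not overlap, and for E2f2 a single P0 litter at 92.4 CPM carries the higher mean.

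Entry into mitosis is driven by CDK1 with its cyclins. Cdk1 was measured at 54.0, 60.9, 64.3 and 84.3 CPM at E12.5 and at 41.0, 40.5, 50.5 and 41.1 CPM at P0. The P0 litters lay below every E12.5 litter and, apart from NPD28, close together. The log2 fold change of -0.61 (95% CI -1.08 to -0.13) narrowly missed the threshold (adjusted p = 0.0593), and the gene was called by DESeq2. Ccna2, encoding cyclin A2 and the most abundant of the drivers, stood at 55.2, 67.1, 77.4 and 78.7 CPM and at 55.8, 69.9, 121 and 83.5 CPM, with overlap and NPD28 highest (log2 fold change 0.24, adjusted p = 0.536). Ccnb2, a B-type cyclin gene, was measured at 16.5, 38.2, 48.7 and 45.2 CPM and at 42.3, 44.0, 69.9 and 68.4 CPM. NDP10.2 was far below the other E12.5 litters, NPD28 and NPD30 were above all of them, and the log2 fold change was 0.59 (SE 0.34, adjusted p = 0.220). The other B-type cyclin, Ccnb1, gave -0.39 (adjusted p = 0.233). Cdc20, which activates the anaphase-promoting complex, gave 0.54 (adjusted p = 0.171), and Cdc25c, the phosphatase that switches on CDK1, gave 0.03 (adjusted p = 0.956).

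The 6 mitotic kinase and checkpoint genes all had negative fitted values, from -0.75 to -0.16, and edgeR called none (2 at an unadjusted p under 0.05, 1 by DESeq2). Aurka, the centrosomal Aurora kinase, stood at 30.7, 29.3, 30.0 and 34.4 CPM at E12.5 and at 11.8, 14.0, 27.7 and 20.2 CPM at P0. The E12.5 litters were tightly grouped and above all P0 litters, and NPD28 came closest to them. Its log2 fold change was -0.75 (SE 0.29, adjusted p = 0.0763), and it was called without NPD28 (-1.01, adjusted p = 0.0237). Birc5, the survivin subunit of the chromosomal passenger complex, was measured at 29, 51.3, 43.8 and 50.2 CPM and at 37.6, 32.2, 43.0 and 36.2 CPM, overlapping (log2 fold change -0.23, adjusted p = 0.518). Aurkb, the kinase of that complex, gave -0.66 (adjusted p = 0.0949), and Plk1, the Polo kinase, -0.44 (adjusted p = 0.388). The checkpoint kinases gave -0.16 for Bub1 (adjusted p = 0.715) and -0.17 for Bub1b (adjusted p = 0.727).

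The 5 genes of the centromere and kinetochore, where chromosomes attach to the spindle, had fitted values from 0.01 to 0.61. Cenpa, the histone variant that marks centromeres, had the narrowest interval of the 59, a log2 fold change of 0.01 (95% CI -0.41 to 0.43, adjusted p = 0.977). Nuf2, a kinetochore subunit that binds microtubules, stood at 21.5, 26.9, 22.4 and 16.7 CPM and at 27.2, 19.9, 35.4 and 29.3 CPM, with overlap at NPD27 (log2 fold change 0.35, adjusted p = 0.347). Cenpf, a large kinetochore protein of late G2, was measured at 49.8, 115, 97.8 and 60 CPM and at 61.0, 59.6, 207 and 164 CPM. Its P0 litters split into a high pair, NPD28 and NPD30, and a pair within the E12.5 range, and the log2 fold change of 0.61 had an interval from -0.38 to 1.6 (adjusted p = 0.348). The kinesin gene Cenpe gave 0.08 (adjusted p = 0.882), and Ndc80, the partner of Nuf2, gave 0.01 (adjusted p = 0.989).

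Of the 7 spindle and cytokinesis genes, Anln had the smallest p. It encodes anillin, which scaffolds the contractile ring, and was measured at 43.4, 55.8, 50.8 and 42.5 CPM at E12.5 and at 56.3, 52.8, 131 and 105 CPM at P0. NPD28 and NPD30 were well above the other litters, and NPD27 fell inside the E12.5 range. The log2 fold change of 0.84 (95% CI 0.16 to 1.53) did not pass the threshold (adjusted p = 0.0660), but the gene was called higher when NPD26 (1.01, adjusted p = 0.0428) or NPD27 (1.03, adjusted p = 0.0334) was left out. Without NPD28 its value was 0.58 (adjusted p = 0.175). Tpx2, which activates Aurora A on the spindle, was the most abundant of these genes, at 76.9, 106, 107 and 97.9 CPM and at 62.1, 64.2, 138 and 118 CPM. The P0 litters fell on both sides of the E12.5 litters, 2 below and 2 above, and the log2 fold change was -0.02 (95% CI -0.67 to 0.63, adjusted p = 0.972). The motor genes gave -0.17 for Kif11 (adjusted p = 0.775), 0.56 for Kif20a (0.266) and 0.24 for Kif23 (0.572). For Kif20a, 29.3% of the exonic bases overlap Cdc23 on the opposite strand, and whether reads were lost there was not tested. Prc1, which bundles midzone microtubules, gave 0.28 (adjusted p = 0.552) and Hmmr, a spindle assembly factor, 0.46 (adjusted p = 0.320).

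Mitotic chromosomes are shaped by condensin, topoisomerase II alpha and the Ki-67 protein. Smc4, a core condensin subunit, stood at 56.6, 132, 122 and 75.5 CPM at E12.5 and at 107, 114, 203 and 174 CPM at P0. NPD28 and NPD30 exceeded every E12.5 litter and the other P0 litters did not, with a log2 fold change of 0.63 (SE 0.32, adjusted p = 0.174). Its partner Smc2 gave -0.07 (adjusted p = 0.894) and the condensin I subunit Ncapd2 gave -0.44 (adjusted p = 0.362), which became a call without NPD28 (-0.83, adjusted p = 0.0455). Mki67, which coats mitotic chromosomes and is widely used as a marker of cycling cells, was the most abundant of all 60 genes, at 349, 547, 447 and 502 CPM and at 276, 408, 946 and 596 CPM. NPD26 was the lowest and NPD28 the highest of the 8 litters, so the P0 litters spanned the E12.5 range on both sides (log2 fold change 0.27, 95% CI -0.54 to 1.08, adjusted p = 0.625). Without NPD28 the value was -0.11 (adjusted p = 0.840). Top2a, which untangles sister DNA, gave -0.26 (adjusted p = 0.584).

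Per kilobase of exon, Mki67 also had the highest level, with a mean of 45.9 CPM per kb at E12.5 and 55.3 CPM per kb at P0. At P0 Ccnb2 and Smc4 followed, at 36.7 and 28.7 CPM per kb. At E12.5 these stood at 24.3 and 18.5 CPM per kb, and Mcm6 was second to Mki67, at 26 CPM per kb. The genes called lower had smaller levels on this scale, at 12.6 and 7.54 CPM per kb for Cdk2, 7.54 and 3.32 CPM per kb for Tyms, and 3.03 and 1.49 CPM per kb for Pole. Length was the union of all annotated exons of a gene, 6.22 kb for Cdk2 and 6.09 kb for Tyms. That union can be longer than the transcript present, so ranks per kb depend on it.

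The G2/M genes varied together among the P0 litters. NPD28 was the highest P0 litter for all 29 of them and for 20 of the 30 G1/S genes tested, 83.1% of the 59 together, against 27.5% of all genes tested. NPD30 was the highest for 0 of the 59 and for 26.6% of all genes. Among the E12.5 litters NDP10.2 was the lowest for 35 of the 59 (59.3%, against 28.7% of all genes). The median SD of log2 CPM was 0.51 at P0 and 0.28 at E12.5 for the G2/M genes and 0.42 and 0.32 for the G1/S genes, where both stages gave 0.45 over all genes tested. These counts describe libraries, and genes within a library are not independent.

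Averaged over the G2/M genes, log2 CPM was 5.33, 5.83, 5.72 and 5.61 at E12.5 and 5.25, 5.26, 6.25 and 5.76 at P0. NPD26 and NPD27 lay just under the E12.5 range, NPD30 within it and NPD28 above it. For the G1/S genes the means were 4.53, 4.79, 4.68 and 5.01 at E12.5 and 4.23, 4.65, 4.90 and 4.26 at P0, where NPD26 and NPD30 were below the E12.5 range and the other P0 litters within it. The G2/M mean exceeded the G1/S mean by 0.80, 1.04, 1.04 and 0.60 at E12.5 and by 1.02, 0.61, 1.35 and 1.5 at P0. The G1/S mean includes Fen1, whose low count is no measure of its transcript and which widens the gap. It does so least in NPD9.2 and NPD27, where Fen1 had 4 and 9 counts. This log2 gap was largest in NPD28 and NPD30, but the stages overlapped in range.

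**Figure D3:**
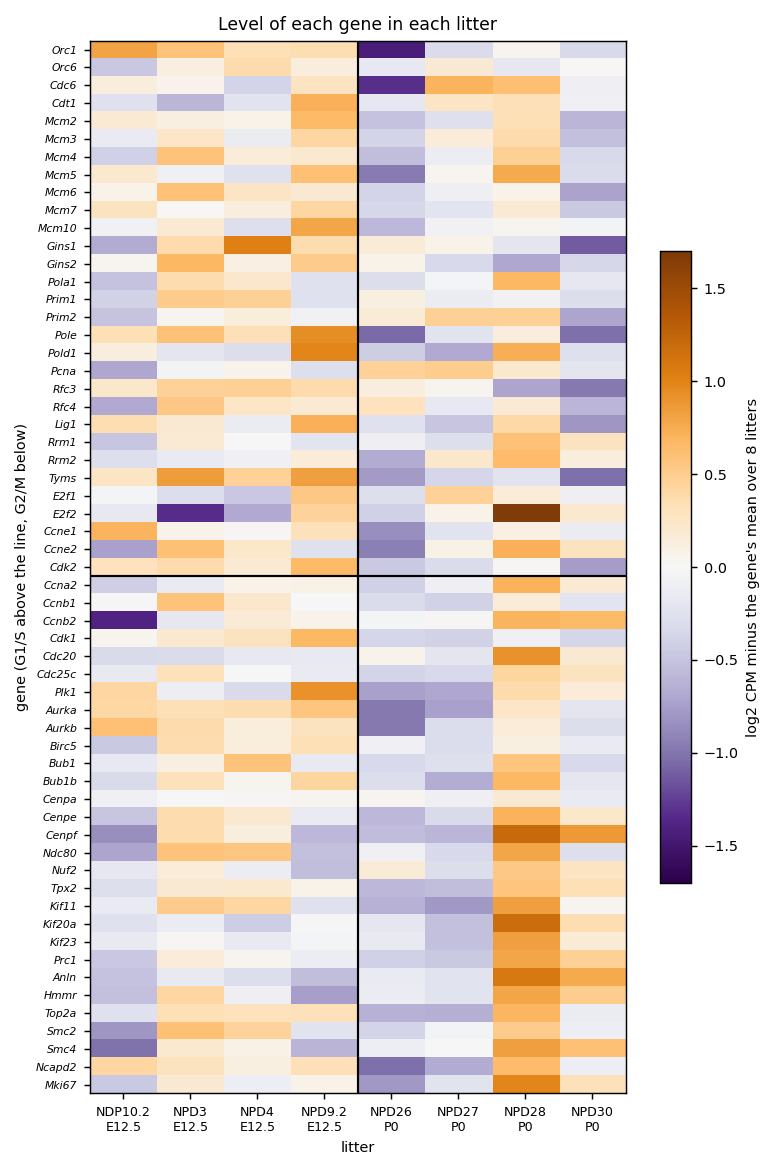
Log2 CPM of the 59 tested genes in each litter, centred on each gene's mean over 8 litters (orange above, purple below; G1/S genes above the line, G2/M genes below). The column of NPD28 is orange through most of the G2/M rows but not for Cdk1, and NPD28 was the highest P0 litter for all 29 G2/M genes.

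Markers of blood cells, which also divide, varied among the same P0 litters. The 12 leukocyte markers summed to 3492, 4195, 4635 and 429 CPM in NPD26, NPD27, NPD28 and NPD30. NPD28, the litter with the highest G2/M mean, therefore had the highest sum, while NPD30, the litter with the next highest, had the lowest. The 7 B cell precursor markers summed to 68.1, 57.0, 364 and 21.8 CPM, highest again in NPD28, and the 5 granulocyte precursor markers to 120.1, 104, 32.3 and 61.2 CPM. At E12.5 these lists summed to 1.17 to 4.48 CPM and to 0.472 to 4.67 CPM, with Dntt, Elane and Ms4a3 at 0 counts in every E12.5 litter. The 7 erythroblast markers summed to 199 to 807 CPM at E12.5 and 98.3 to 277 CPM at P0, with Slc4a1 the most abundant (mean 257 and 86.6 CPM), but they did not share a direction. Alas2 was called lower and Klf1 higher at P0, and the mean log2 CPM of the list was 4.62 and 4.55. The 6 osteoblast markers summed to 28.2 to 87.8 CPM and 321 to 683 CPM. Of the 5 tested, 4 were called higher at P0. Runx2 was most of the E12.5 sum and was not called (mean 52.2 and 39.4 CPM). Ibsp was most of the P0 sum (mean 356 CPM). The 7 neural tube markers summed to 87.0, 65.8, 671 and 99.1 CPM at E12.5 and to 72.0 to 156 CPM at P0. The value of 671 CPM was that of NPD4 alone, mostly from Dcx (378 CPM) and Elavl3 (289 CPM). Whether these cells contributed to the levels of replication and mitosis genes was not tested.

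**Figure D4:**
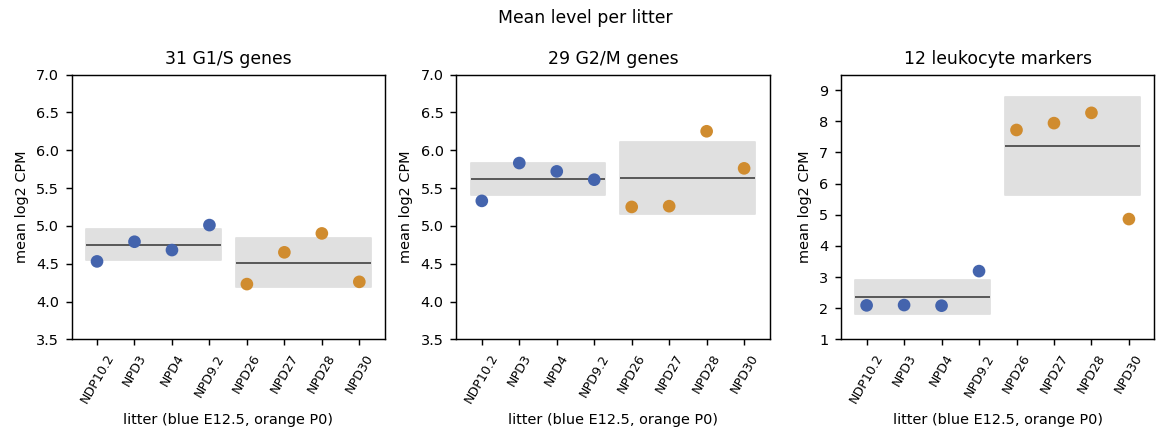
Mean log2 CPM per litter of the 31 G1/S genes, the 29 G2/M genes and 12 leukocyte markers (blue E12.5, orange P0; line and grey box, mean and SD over 4 litters). The G2/M means of the P0 litters run from 5.25 to 6.25 around the E12.5 range of 5.33 to 5.83, while every P0 litter exceeds every E12.5 litter in leukocyte markers.

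Further cell-cycle genes were drawn from a longer list of known functions. Of 40 further G1/S genes, 4 were called and all were lower at P0, which is 10% of them beside 27.9% of all genes, and their median log2 fold change was -0.31. The called genes were Ticrr at -1.24 (adjusted p = 0.0208) and Cdc7 at -1.01 (0.0196), both needed for origin firing, Chaf1b at -1.12 (0.0229), a subunit of the chromatin assembly factor behind the fork, and Cdc25a at -0.89 (0.0443), a phosphatase that activates CDK2. The highest values were 0.56 for Pole4 (adjusted p = 0.111), 0.42 for Orc2 (0.402) and 0.31 for Gins3 (0.615), none past the threshold. Of 50 further G2/M genes, 3 were called, all lower (6.00%), with a median of -0.19. They were Cdca2 at -1.12 (adjusted p = 0.0459), a phosphatase regulator on mitotic chromatin, Cks1b at -0.89 (0.00950), a CDK-binding subunit, and Ube2c at -0.69 (0.0379), a ubiquitin-conjugating enzyme of the anaphase-promoting complex. Cenpk, at -0.89 (adjusted p = 0.130), was among the lowest 3 without a call. Ncapg2 at 0.63 (adjusted p = 0.173), Pbk at 0.59 (0.256) and Nek2 at 0.52 (0.296) had the highest values.

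The promoters of the 2 phases differ in their known elements, and they are shown because the phases were followed separately here. RefSeq promoters on GRCm38.p6, from 250 bases before to 50 bases after the start, were matched for 48 of the 60 genes, giving 54 promoters. An E2F motif (TTTCCCGC, TTTCGCGC, TTTGCCGC or TTTGGCGC, either strand) was found in 13 of 30 G1/S promoters (43.3%) and 2 of 24 G2/M promoters (8.33%), and in 2.26% of all 32851 promoters of this length. A CHR motif (TTTGAA or TTCGAA, either strand) was found in 16.7% of G1/S, 83.3% of G2/M and 19.2% of all promoters. CCAAT on either strand was found in 60%, 83.3% and 37.4%. Among the 14269 promoters of the genes tested, the shares were 3.63% for E2F, 13.6% for CHR and 37.0% for CCAAT. Motifs may overlap one another, and a match is a description of the letters, not of binding. The promoter of Tyms, the gene with the largest decrease, held no match. In the sequences below, written 5′ to 3′ on the strand of the gene, capitals mark matches to any of the motifs. Those of Cdk2, called lower, and Mcm6, the most abundant MCM gene, hold E2F and CCAAT matches. Those of Top2a, with 4 CHR and 6 CCAAT matches, and Anln, with 2 CHR matches, come from G2/M.
Tyms, chr5:30073576-30073875, minus strand: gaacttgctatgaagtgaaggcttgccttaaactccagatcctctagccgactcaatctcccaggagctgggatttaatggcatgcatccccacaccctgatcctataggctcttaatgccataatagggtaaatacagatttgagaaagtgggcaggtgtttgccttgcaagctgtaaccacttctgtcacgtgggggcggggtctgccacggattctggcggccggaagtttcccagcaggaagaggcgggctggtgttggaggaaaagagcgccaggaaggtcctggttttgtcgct
Cdk2, chr10:128705002-128705301, minus strand: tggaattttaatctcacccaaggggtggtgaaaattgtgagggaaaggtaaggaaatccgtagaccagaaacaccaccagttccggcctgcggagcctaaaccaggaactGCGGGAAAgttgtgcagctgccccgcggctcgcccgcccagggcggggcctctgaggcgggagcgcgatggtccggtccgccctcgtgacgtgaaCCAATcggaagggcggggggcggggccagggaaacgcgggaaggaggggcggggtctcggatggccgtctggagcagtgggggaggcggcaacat
Mcm6, chr1:128359656-128359955, minus strand: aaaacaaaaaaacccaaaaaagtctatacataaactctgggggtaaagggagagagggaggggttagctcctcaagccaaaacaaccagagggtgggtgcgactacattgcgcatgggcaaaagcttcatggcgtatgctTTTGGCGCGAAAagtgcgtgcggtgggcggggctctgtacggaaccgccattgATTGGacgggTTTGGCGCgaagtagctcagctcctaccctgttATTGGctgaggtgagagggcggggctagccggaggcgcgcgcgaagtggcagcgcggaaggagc
Top2a, chr11:99024140-99024439, minus strand: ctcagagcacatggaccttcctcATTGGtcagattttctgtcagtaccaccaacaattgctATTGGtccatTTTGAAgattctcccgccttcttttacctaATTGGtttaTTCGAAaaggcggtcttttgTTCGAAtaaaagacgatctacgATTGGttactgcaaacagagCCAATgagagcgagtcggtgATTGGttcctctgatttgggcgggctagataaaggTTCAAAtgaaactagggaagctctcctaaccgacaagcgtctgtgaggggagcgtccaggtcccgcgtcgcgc
Anln, chr9:22389157-22389456, minus strand: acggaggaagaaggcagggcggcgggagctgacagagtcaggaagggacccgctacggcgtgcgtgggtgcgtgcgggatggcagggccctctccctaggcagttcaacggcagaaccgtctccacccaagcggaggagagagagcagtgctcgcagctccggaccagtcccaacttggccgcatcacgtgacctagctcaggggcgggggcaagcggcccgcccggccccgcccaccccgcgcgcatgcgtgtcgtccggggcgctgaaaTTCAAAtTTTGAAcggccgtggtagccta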

How the data were processed

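RNA from NDCs of 4 E12.5 litters and 4 P0 litters was sequenced with TotalScript libraries. The authors aligned reads with STAR 2.4.0j to GRCm38.p3 and deposited raw counts per Gencode M4 gene made with HTSeq, with no normalization, and the strand setting of the counting is not given in the sources used here. Stages were taken from the labels. Summary lines that name no gene were left out of library sizes, and 22.6% to 34.8% of the tallied reads fell on genes. Of 43346 identifiers 42462 were matched to a symbol, and each of the 60 genes had exactly 1 identifier. Gencode M21, on GRCm38 too, gave positions, exon lengths and overlaps.

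Counts were tested across all genes in R 4.3.3 with edgeR 4.0.16 (TMM, filterByExpr with a minimum count of 10 and a minimum total of 15, robust quasi-likelihood F-test, Benjamini-Hochberg adjustment over the 15467 genes that passed the filter), with calls made at an adjusted p under 0.05. Two-sided p-values set the difference between the stages against the spread between litters. Log2 CPM used a prior count of 2. The fit was tested on simulated data. Depth was 4442775 to 8904050 reads on genes, and 3 counts equal 0.353 to 0.738 CPM on TMM library sizes.

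The 60 genes and all lists were chosen with earlier results of these data known. Every gene was named, and values in each litter were given, in each functional role, for the gene with the smallest adjusted p and the most abundant gene, for the 5 lowest and 5 highest log2 fold changes, for the 3 highest levels per kb and for genes with too few counts. Of the further cell-cycle lists the 3 lowest and 3 highest were named, and the other called genes, Cdc25a and Ube2c, were named after their values were seen. Means of log2 CPM over a list carry no test. Alternatives were DESeq2 1.42.0, other size factors, other filters, hemoglobin and mitochondrial genes left out, a fold change over 2, shorter phase lists and each litter left out. Leaving out NDP10.2 with NPD9.2, or NPD26, NPD27 and NPD28 together, was added after seeing the data.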

Additional observations from a re-analysis of the deposited data

Results flagged for a closer look

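Under Dixon's criterion for 4 samples, a group is marked when its most extreme litter is set apart by more than a critical share of the range. That share is the gap to the nearest litter over the range of the stage. The criterion was applied to the log2 CPM of the 59 tested genes at each stage, 118 groups in all. It marked 4 of them, and chance marks about 1 in 20 groups, or 5.90 of 118. Mcm10 was low in the P0 litter NPD26, at 11.2 CPM against 16.0 to 17.2 CPM in the other P0 litters. Cdk1 was high in NPD28, at 50.5 CPM against 40.5 to 41.1 CPM. Bub1 was also high in NPD28, at 38.8 CPM against 20.8 to 22.1 CPM. Top2a was low in the E12.5 litter NDP10.2, at 147 CPM against 214 to 219.5 CPM. The litters behind these values were also the ones that stood at the extremes of their stage for many other replication and mitosis genes.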

How the results depend on the processing

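The median of the G1/S genes stayed negative under each alternative run, from -0.46 to -0.17, while that of the G2/M genes took both signs, from -0.20 without NPD28 to 0.25 without NPD26, NPD27 and NPD28. These shifts were smaller than the pooled SD between litters of the phase means. That SD includes the spread from the litters left out, NPD28 among them. The comparison therefore cannot show that the medians do not depend on a single litter. Counts of calls were less stable. DESeq2 called 6 of the 60 genes lower, 2 of them in G2/M. Upper quartile factors, which moved the median of all genes from 0.04 to -0.11, called 8 lower, 5 in G1/S and 3 in G2/M. They also called 10 of the further G1/S genes lower. Of all genes tested, 33.1% passed with DESeq2 and 28.6% with upper quartile factors, beside 27.9% in the main fit. Without a filter on low counts 1 gene, Anln, was called higher, and 15.2% of all genes passed. With hemoglobin and mitochondrial genes left out 1 G2/M gene, Cdk1, was called lower, and 27.9% of all genes passed. Leaving out 1 litter at a time gave 1 to 5 genes lower and 0 to 1 higher (Anln without NPD26 or NPD27), 1 to 3 lower in G1/S, 0 to 2 in G2/M, 0 to 8 of the further G1/S genes and 1 to 4 of the further G2/M genes. Only Tyms was called without NPD3, NPD9.2 or NPD30, and 5 genes were called without NPD28. Across the fits that left out 1 litter, 22.6% to 28.1% of all genes passed, 24.3% without NPD28. Without NDP10.2 and NPD9.2, 1 gene was called, in G1/S, with 1 in each further list, and 15.2% of all genes passed. Without NPD26, NPD27 and NPD28, which leaves 1 P0 litter that is assumed to vary like the others, 0 genes were called in any of these lists, 1054 of 17134 genes (6.15%) passed overall and Tyms had an adjusted p of 0.0611. The causes of these differences were not tested. Of 944 values of single genes under the alternatives, 836 kept their direction and side of the threshold, 15 gained a call, 16 lost one, 77 changed sign without a call in either fit and 0 changed sign with one. No paired analysis was possible because the labels give no number that links a litter of one stage with a litter of the other. With 4 litters a stage the median SE was 0.30 on the log2 scale, so changes well under 2-fold were often not detectable.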
